A study of Mus musculus with 12 samples.

Results

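The genes described here were 8 complement genes taken by symbol from a table of 55335 genes: C1qa, C1qb and C1qc (the C1q chains), C3, Cfb (factor B), Cfp (properdin), C3ar1 and C5ar1. All 8 passed the filter of at least 1 FPKM (fragments counted on a gene, divided by its length and by the library's mapped fragments) in at least 3 of the 12 libraries, which 12622 genes passed. Complement is a cascade of plasma proteins that tags microbes and dying cells for uptake, recruits leukocytes and can perforate membranes. C1q, a bundle built from A, B and C chains, opens the classical pathway when it binds antibody complexes or altered surfaces. C3 is the central component onto which every activation route converges, and factor B and properdin form and stabilise the alternative-pathway convertase that amplifies C3 cleavage. The cleavage fragments C3a and C5a act on the G protein-coupled receptors C3aR and C5aR1. Macrophages are a major tissue source of C1q and can also make C3, factor B and properdin locally.

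The libraries were bulk RNA-seq of mouse bone marrow-derived macrophages (BMDMs), in 4 groups. Each genotype, wild-type and Nlrp3-/-, had 3 unstimulated control libraries and 3 libraries of cells given LPS and then ATP (LPS+ATP). NLRP3 is the sensor of an inflammasome that processes IL-1β. Lipopolysaccharide (LPS) primes its expression, and extracellular ATP triggers its assembly. The labels give 4 hours of LPS followed by 30 minutes of ATP, whereas the study's methods describe longer exposures, so the times are those of the labels. By the methods the mice were young adult C57BL/6, the marrow was cultured with macrophage colony-stimulating factor, and the adherent cells were used without a sort. The knockout mice came from another supplier than the wild-type mice. No source says whether the libraries of a group came from separate animals or cultures, so p-values measure the spread between these libraries, which may be technical.

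Nlrp3 read 9.24 to 33.6 FPKM in the wild-type libraries and 0 in all 6 Nlrp3-/- libraries, as labelled. Il1b was between 0.186 and 1.73 FPKM in control libraries and between 994 and 1404 after LPS+ATP. Relative depth, estimated from the most common ratio of low values between libraries, spanned 1 to 1.219. All 6 macrophage markers were above 1 FPKM in every group, and all 4 dendritic cell markers were below it. The macrophage markers summed to 19770 to 20950 FPKM in wild-type control and 11450 to 11510 in wild-type LPS+ATP. In Nlrp3-/- libraries they summed to 18900 to 19140 in control and 10880 to 11130 after LPS+ATP. By limma at the adjusted p alone, 4 of the 6 were lower in the knockout in control and 3 after LPS+ATP, and 0 higher. Of all tested genes, 47.8% and 48.5% passed in either direction. The 6 fibroblast markers summed to 157 to 161.7 FPKM in wild-type control and 180.6 to 183.3 in wild-type LPS+ATP. They summed to 1165 to 1182 FPKM in Nlrp3-/- control and 891.4 to 907.1 in Nlrp3-/- LPS+ATP. The 6 granulocyte markers summed to 241.1 to 274.3 FPKM in wild-type control, 91.63 to 107.4 in wild-type LPS+ATP, 1420 to 1467 in Nlrp3-/- control and 417 to 444.8 in Nlrp3-/- LPS+ATP. These marker sums moved with genotype and with stimulation. With LPS+ATP the fibroblast sum was higher in wild-type and lower in Nlrp3-/- libraries, and the macrophage and granulocyte sums were lower in both. Lyz2 made up most of the macrophage sum, with means of 18464 FPKM in wild-type control and 9471.5 in wild-type LPS+ATP. By limma at the adjusted p alone, 2 macrophage markers rose and 4 fell in wild-type, and 3 rose and 3 fell in Nlrp3-/- libraries. Among fibroblast markers, 5 rose and 1 fell in wild-type, and 2 rose and 3 fell in Nlrp3-/- libraries. Over all tested genes, 76.4% and 74.3% passed in either direction. The part of these markers in the values below was not tested. Xist was at most 0.0416 FPKM in wild-type and at least 32.8 in Nlrp3-/- libraries, and the Y-linked Ddx3y was 0 in the latter, so the sex of the mice and the genotype cannot be told apart. In bulk RNA, fewer cells of a type and less RNA per cell cannot be told apart either.

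By the GENCODE M21 annotation (build GRCm38) all 8 genes are protein-coding and lie on the minus strand. C1qb (ENSMUSG00000036905, chr4:136880129-136886187), C1qc (ENSMUSG00000036896, chr4:136889804-136893065) and C1qa (ENSMUSG00000036887, chr4:136895917-136898803) stand in tandem within 18675 bases, with gaps of 3616 and 2851 bases. Cfb (ENSMUSG00000090231, chr17:34856374-34862518) begins 85 bases from C2, another component gene, and the remaining genes are C3 (ENSMUSG00000024164, chr17:57203970-57228136), Cfp (ENSMUSG00000001128, chrX:20925454-20931555), C3ar1 (ENSMUSG00000040552, chr6:122847138-122856161) and C5ar1 (ENSMUSG00000049130, chr7:16246743-16259540). The deposited processing notes name the later build GRCm39, so these coordinates place the genes but are not those of the authors' alignment. The annotated gene Gm20547 shares 2246 exon bases with Cfb on the same strand. Its own level was at most 1.75 FPKM, and reads from the shared bases cannot be told apart.

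No upstream sequence was available here for C1qa, the C1q chain that moved otherwise than its neighbours. The sequences upstream of 4 of the genes are shown: C1qb and C1qc, neighbours that moved alike, and C3 and C3ar1, which moved in opposite directions. They were taken from RefSeq promoter windows on GRCm38 and are written 5′ to 3′ on the gene's own, minus strand, up to the base before the farthest annotated start. Capitals mark matches to the motifs searched. The windows are C1qb at chr4:136886201-136886450, C1qc at chr4:136893066-136893164, C3 at chr17:57228137-57228386 and C3ar1 at chr6:122856162-122856407.
C1qb: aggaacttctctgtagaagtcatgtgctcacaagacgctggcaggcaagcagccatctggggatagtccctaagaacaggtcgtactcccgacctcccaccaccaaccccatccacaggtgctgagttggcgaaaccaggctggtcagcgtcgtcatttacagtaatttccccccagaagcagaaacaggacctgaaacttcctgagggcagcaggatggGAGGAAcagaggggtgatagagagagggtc
C1qc: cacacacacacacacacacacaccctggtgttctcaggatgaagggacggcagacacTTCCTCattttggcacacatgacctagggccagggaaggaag
C3: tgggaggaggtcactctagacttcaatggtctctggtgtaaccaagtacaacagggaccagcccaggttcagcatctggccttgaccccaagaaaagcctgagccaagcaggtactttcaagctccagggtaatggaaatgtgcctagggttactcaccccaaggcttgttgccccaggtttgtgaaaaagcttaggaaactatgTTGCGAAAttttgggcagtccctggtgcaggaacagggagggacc
C3ar1: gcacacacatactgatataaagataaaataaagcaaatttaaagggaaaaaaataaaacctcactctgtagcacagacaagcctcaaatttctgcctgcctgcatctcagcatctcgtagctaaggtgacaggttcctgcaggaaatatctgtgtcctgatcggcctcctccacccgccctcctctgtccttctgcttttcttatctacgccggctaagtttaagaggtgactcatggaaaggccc
Both C1q stretches hold the core of the site of PU.1, a transcription factor of the myeloid lineage, as GAGGAA at -30 to -25 from the RefSeq start of C1qb and on the opposite strand as TTCCTC at -193 to -188 from that of C1qc. The C3 stretch holds TTGCGAAA, which fits the C/EBP pattern TTGCNNAA, at -45 to -38. The C3ar1 window held none of the 6 motifs. The full windows run from 250 bases before to 50 bases after a start, and 6 of the 8 genes had one, all but C1qa and Cfb. Both strands were searched for GAGGAA, TTGCNNAA, GAAANNGAA (the interferon-stimulated response element core), TTCNNNGAA (a STAT site), TGCTGAC (a MAF core) and the kappa-B consensus. Over all 32851 windows of the table, 28.3% held the PU.1 core, 10.8% the C/EBP pattern, 8.6% the interferon element, 8.3% the STAT site, 4.7% the MAF core and 8.5% the kappa-B consensus. Outside the printed stretches, the C1qc window held a kappa-B match at -41 to -32, the C5ar1 window an interferon element core at -66 to -58, and the Cfp window the PU.1 core at 6 to 11 and at 22 to 27. A match is a description of letters and says nothing of binding.

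C3 and Cfb rose with LPS+ATP and the other 6 genes fell, in both genotypes. In wild-type BMDMs, 2 of the 8 genes were called higher and 4 lower (C1qb, C1qc, C3ar1 and C5ar1) at an adjusted p under 0.05 and an absolute log2 fold change of at least 1. Of all tested genes, 8.25% were called higher and 11.2% lower by this rule. In Nlrp3-/- BMDMs, 2 were called higher, against 6.64% of all tested genes, and 2 lower (C3ar1 and C5ar1), against 8.21%. Without the fold limit all 8 passed in both genotypes, where 76.4% and 74.3% of all tested genes passed. The median log2 fold change of the 8 genes was -0.98 in wild-type and -0.65 in Nlrp3-/- BMDMs, against -0.25 and -0.24 over all tested genes. Scaling by median ratios in place of FPKM moved that background by 0.24 and 0.23 towards 0, and small changes below are to be read against it. All fold changes are differences in log2(FPKM + 1), tested with limma.

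**Figure D1:**
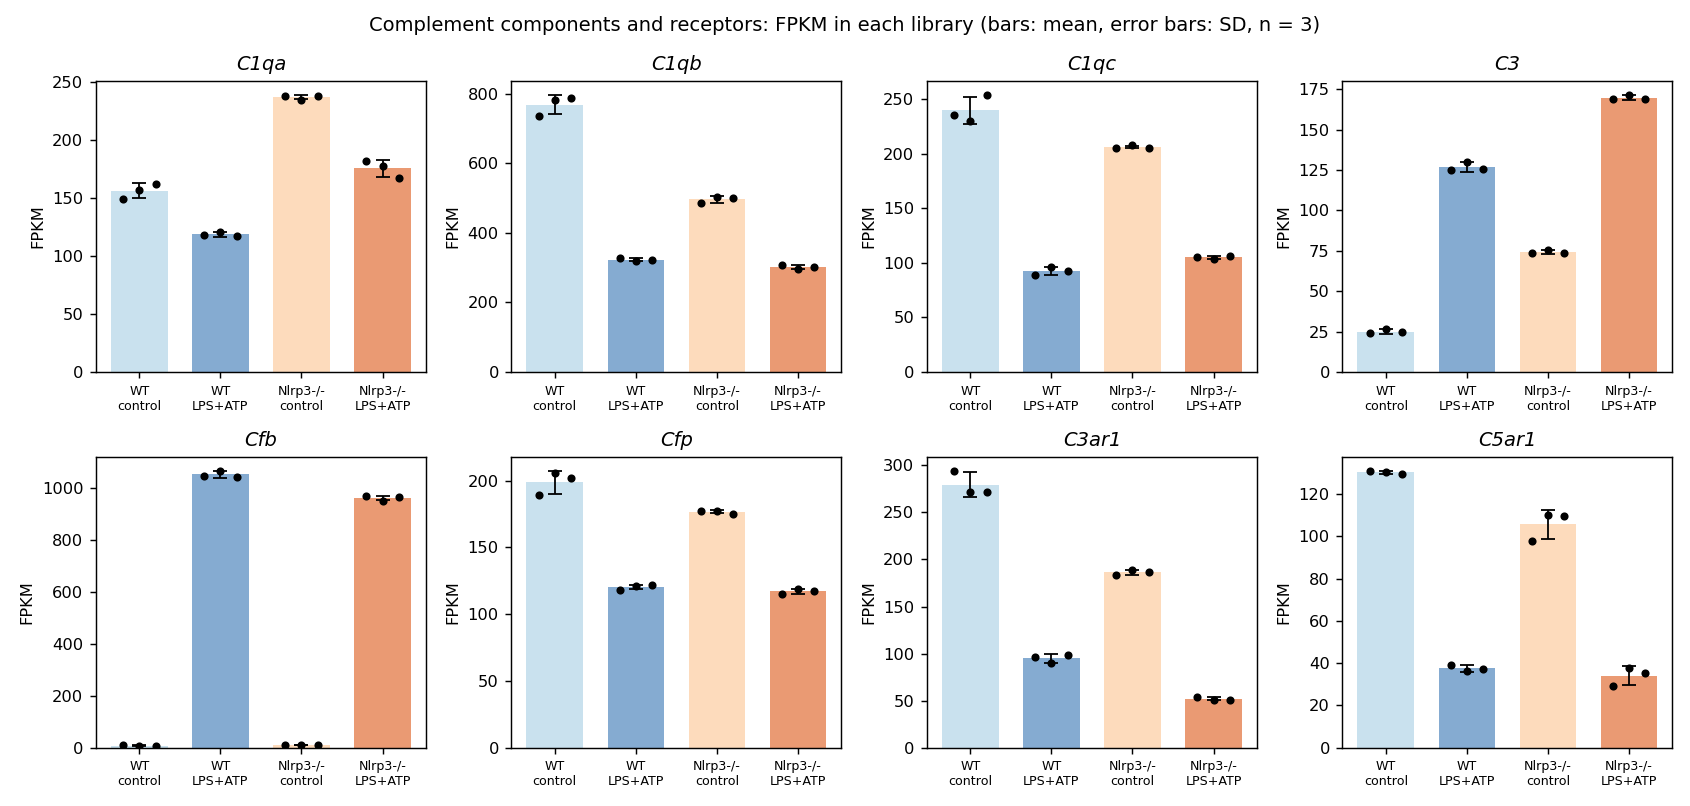
FPKM of the 8 complement genes in each library (points), with the group mean (bars, each axis starting at 0) and SD (error bars, n = 3). C3 and Cfb were higher after LPS+ATP in both genotypes and the other 6 genes lower, and Cfb went from about 8.17 to 1053 FPKM in wild-type BMDMs.

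The C1q chains fell with LPS+ATP, and they did so unequally. C1qb was the most abundant, with 736, 783 and 786 FPKM in wild-type control and 327, 319 and 321 in wild-type LPS+ATP libraries. In Nlrp3-/- BMDMs it read 485, 505 and 501 FPKM in control and 308, 297 and 303 after LPS+ATP. The 4 groups did not overlap, and wild-type control stood well above the rest, where C1qb ranked 38 of all tested genes by mean FPKM. The fall was -1.25 on the log2 scale in wild-type (SE 0.0301, adjusted p = 1.111e-11) and -0.71 in Nlrp3-/- BMDMs (SE 0.0301, adjusted p = 1.988e-09). Its difference between genotypes, 0.53 (SE 0.0426, adjusted p = 6.172e-06), was tested as the interaction of genotype and stimulation. Under median-ratio and upper-quartile scaling the fall in wild-type was -0.93 and -0.99, just short of the fold limit.

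C1qc moved like C1qb but less far apart between genotypes. Its libraries read 235, 229.9 and 254 FPKM in wild-type control, 88.5, 96.1 and 92.6 in wild-type LPS+ATP, 205, 208 and 205 in Nlrp3-/- control and 105, 103 and 107 in Nlrp3-/- LPS+ATP. The knockout was below wild-type in control and above it after LPS+ATP, with no overlap in either state, although the latter difference was -0.03 (adjusted p = 0.5299) with median-ratio scaling. It changed by -1.36 on the log2 scale in wild-type (SE 0.0395, adjusted p = 5.178e-11) and by -0.97 in Nlrp3-/- BMDMs (adjusted p = 1.52e-09), with an interaction of 0.40 (SE 0.0559, adjusted p = 0.0003505).

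C1qa differed from its neighbours in the order of the genotypes. It read 149.6, 157 and 162 FPKM in wild-type control, 119, 121 and 117 in wild-type LPS+ATP, 238, 235 and 239 in Nlrp3-/- control and 182, 178 and 168 in Nlrp3-/- LPS+ATP. Every Nlrp3-/- library was above every wild-type library of either state. C1qa changed by -0.39 in wild-type (SE 0.037, adjusted p = 1.857e-06) and by -0.43 in Nlrp3-/- BMDMs (adjusted p = 9.471e-07). These falls lay near the median of all tested genes, and with median-ratio scaling the wild-type value was -0.08 (adjusted p = 0.1046) and the Nlrp3-/- value -0.13 (adjusted p = 0.01038). The interaction for C1qa was -0.04 (SE 0.0523, adjusted p = 0.6154).

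The ratio of the chains within a library does not depend on scaling between libraries. The ratio of C1qb to C1qa FPKM was 4.91 ± 0.0706 (SD, n = 3) in wild-type control, 2.71 ± 0.0701 in wild-type LPS+ATP, 2.10 ± 0.0538 in Nlrp3-/- control and 1.72 ± 0.0742 in Nlrp3-/- LPS+ATP, and no 2 groups overlapped. The ratio of C1qc to C1qa went from 1.53 ± 0.0606 to 0.776 ± 0.0267 with stimulation in wild-type and from 0.868 ± 0.0126 to 0.598 ± 0.0325 in Nlrp3-/- BMDMs. C1qb to C1qc changed less, from 3.21 ± 0.169 to 3.496 ± 0.191 in wild-type, where the libraries overlapped, and from 2.41 ± 0.0431 to 2.88 ± 0.0441 in Nlrp3-/- BMDMs. C1qa made up 13.4% of the summed chains in control and 22.3% in stimulated wild-type BMDMs, and 25.2% and 30.1% in the same states of the knockout. The sum itself was 1165 ± 41.1 and 534 ± 2.80 FPKM in wild-type and 940.5 ± 9.87 and 583 ± 10.5 in Nlrp3-/- BMDMs, so it was lower after stimulation in both. FPKM is per length, so ratios between genes depend on the gene length the authors used.

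**Figure D2:**
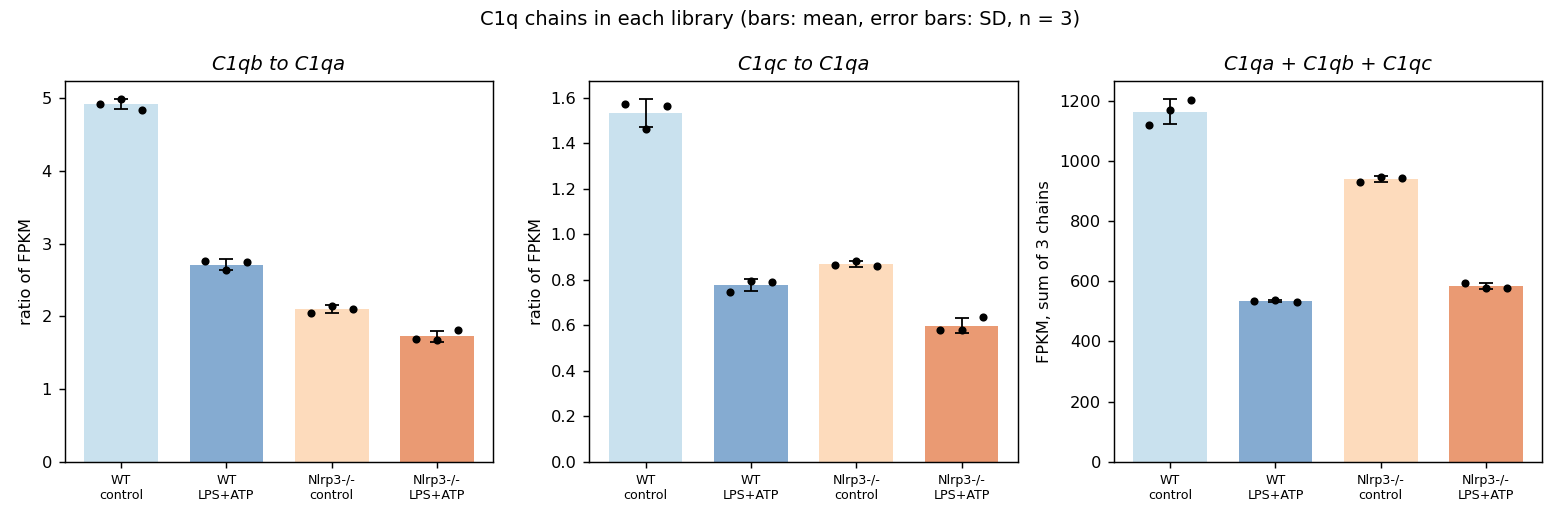
Ratio of FPKM of C1qb to C1qa (left) and of C1qc to C1qa (middle), and the summed FPKM of the 3 C1q chains (right), in each library (points) with the group mean (bars) and SD (error bars, n = 3). Both ratios were highest in wild-type control, at 4.91 and 1.53, and lowest in Nlrp3-/- LPS+ATP, at 1.72 and 0.598.

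C3 rose with stimulation and was higher in the knockout in both states. Wild-type control libraries read 24.0, 26.5 and 24.6 FPKM and wild-type LPS+ATP libraries 125, 130.1 and 125. Nlrp3-/- control libraries read 73.7, 75.6 and 73.6 FPKM and Nlrp3-/- LPS+ATP libraries 169, 171 and 169. The 4 groups did not overlap, and the unstimulated knockout lay between both wild-type states. C3 rose by 2.30 on the log2 scale in wild-type (SE 0.0361, adjusted p = 3.25e-13), a 5.07-fold ratio of mean FPKM, and by 1.18 in Nlrp3-/- BMDMs (adjusted p = 1.147e-10), a 2.28-fold ratio. The interaction was -1.12 (SE 0.0511, adjusted p = 1.312e-07). C3 was the only 1 of the 8 genes past both limits in the interaction, against 1.43% of all tested genes with a lower and 0.721% with a higher value there. Its rise in the knockout started from a 2.97-fold higher control level.

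Cfb showed the largest change of the 8 genes. It read 8.85, 7.45 and 8.20 FPKM in wild-type control and 10.3, 9.67 and 10.4 in Nlrp3-/- control libraries. After LPS+ATP it read 1049, 1068 and 1043 FPKM in wild-type and 970.1, 952 and 965 in Nlrp3-/- libraries. Stimulated libraries stood far above control libraries, and within each state the genotypes were close but did not overlap. The log2 fold change was 6.85 in wild-type (SE 0.0478, adjusted p = 6.829e-16) and 6.44 in Nlrp3-/- BMDMs (adjusted p = 1.755e-15), or 129-fold and 95.3-fold in mean FPKM. It ranked 11 and 7 among the rises of all tested genes, and its mean level moved from rank 4639 to 24 in wild-type and from 4181 to 26 in Nlrp3-/- BMDMs. The interaction was -0.41 (SE 0.0676, adjusted p = 0.001094). The Cfb to C3 ratio went from 0.328 ± 0.0445 to 8.30 ± 0.0876 in wild-type and from 0.136 ± 0.00695 to 5.67 ± 0.104 in Nlrp3-/- BMDMs.

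Cfp, which encodes properdin and lies on the X chromosome, went the other way from Cfb. It read 189, 206 and 202 FPKM in wild-type control, 118, 121 and 122 in wild-type LPS+ATP, 177, 178 and 175 in Nlrp3-/- control and 115, 119 and 117 in Nlrp3-/- LPS+ATP. Control and stimulated libraries did not overlap, and the genotypes overlapped after LPS+ATP. Cfp changed by -0.72 in wild-type (SE 0.0315, adjusted p = 2.035e-09) and by -0.59 in Nlrp3-/- BMDMs (adjusted p = 1.591e-08). The interaction, 0.13 (SE 0.0445), had an adjusted p of 0.052, and of 0.004232 without wild-type control replicate 1 (0.17).

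Both anaphylatoxin receptors fell past the fold limit in both genotypes. C3ar1, the receptor of C3a, read 294, 272 and 271 FPKM in wild-type control, 96.9, 89.6 and 98.4 in wild-type LPS+ATP, 183, 189 and 187 in Nlrp3-/- control and 53.7, 51.0 and 51.1 in Nlrp3-/- LPS+ATP. The knockout was lower in each state and no groups overlapped. The log2 fold change was -1.55 in wild-type (SE 0.0431, adjusted p = 3.697e-11) and -1.82 in Nlrp3-/- BMDMs (adjusted p = 1.213e-11), with an interaction of -0.28 (SE 0.0609, adjusted p = 0.00616).

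C5ar1, the main receptor of C5a, read 131, 131 and 129 FPKM in wild-type control and 39.3, 36.2 and 37.1 in wild-type LPS+ATP. In the knockout it read 97.8, 110.0 and 109 FPKM in control and 29.0, 37.7 and 35.3 after LPS+ATP. The genotypes stood apart in control and overlapped after LPS+ATP. C5ar1 changed by -1.77 in wild-type (SE 0.081, adjusted p = 2.968e-09) and by -1.62 in Nlrp3-/- BMDMs (adjusted p = 9e-09). The interaction was 0.15 (SE 0.114, adjusted p = 0.362). It became 0.26 (adjusted p = 0.03062) without Nlrp3-/- LPS+ATP replicate 1. C3ar1 to C5ar1 stood at 2.14 ± 0.0901 and 2.53 ± 0.104 in wild-type and at 1.77 ± 0.0924 and 1.55 ± 0.265 in Nlrp3-/- BMDMs, in control and after LPS+ATP.

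The genotype comparison in control BMDMs was led by C3, which was 1.53 higher on the log2 scale in Nlrp3-/- (SE 0.0361, adjusted p = 5.706e-11) and the only 1 of the 8 past the fold limit. Of all tested genes, 6.02% were called higher and 0.689% lower in this comparison. At the adjusted p alone all 8 differed, 3 higher and 5 lower, where 47.8% of all tested genes differed. C1qa was higher by 0.60 (SE 0.037, adjusted p = 1.335e-07) and Cfb by 0.28 (adjusted p = 0.0005676), the latter at 0.10 (adjusted p = 0.1063) with median-ratio scaling. Lower in the knockout were C1qb by -0.63 (adjusted p = 1.757e-08), C3ar1 by -0.58 (adjusted p = 6.107e-07), C5ar1 by -0.30 (adjusted p = 0.009945), C1qc by -0.22 (adjusted p = 0.0008996) and Cfp by -0.17 (adjusted p = 0.0009756). C3, C1qa and Cfb were thus higher in the libraries whose fibroblast and granulocyte marker sums were higher, and the part of those markers was not tested. The median over the 8 was -0.19, against 0.09 over all tested genes. Median-ratio scaling shifted that background by -0.15.

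After LPS+ATP none of the 8 genes was past the fold limit between genotypes, where 4.48% of all tested genes were called higher and 0.57% lower with limma. At an adjusted p alone 6 of the 8 differed, against 48.5% of all tested genes. At an unadjusted p under 0.05 the count was also 6, and 0 of them were past the fold limit. C3ar1 had the largest difference, -0.86 (SE 0.0431, adjusted p = 3.496e-08), and reached -1.07 with median-ratio scaling. C1qa stayed higher by 0.56 (SE 0.037, adjusted p = 2.994e-07) and C3 by 0.42 (adjusted p = 2.662e-06). With median-ratio scaling these shrank to 0.34 (adjusted p = 2.329e-05) and 0.20 (adjusted p = 0.001517). C1qc was 0.18 higher (adjusted p = 0.002622), but -0.03 (adjusted p = 0.5299) with median-ratio scaling, so its direction rests on the scaling. C1qb, at -0.09 (adjusted p = 0.02586), and Cfb, at -0.13 (adjusted p = 0.04298), lost the adjusted p when single libraries were left out. It went up to 0.09347 without Nlrp3-/- LPS+ATP replicate 2 for C1qb and up to 0.1114 without wild-type LPS+ATP replicate 2 for Cfb. Median-ratio scaling made both differences larger, at -0.31 (adjusted p = 1.149e-05) for C1qb and -0.35 (adjusted p = 7.05e-05) for Cfb. Cfp, at -0.04 (adjusted p = 0.3253), and C5ar1, at -0.15 (adjusted p = 0.1633), did not pass, and with median-ratio scaling read -0.26 (adjusted p = 7.839e-05) and -0.36 (adjusted p = 0.003664). The median over the 8 was -0.07, against 0.11 over all tested genes, which median-ratio scaling shifted by -0.17.

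In the interaction, 5 of the 8 genes passed at an adjusted p alone (C1qb and C1qc with positive values, C3, Cfb and C3ar1 with negative ones), against 27.7% of all tested genes. For C1qb and C1qc a positive value meant a smaller fall in the knockout, for C3 and Cfb a negative value a smaller rise, and for C3ar1 a negative value a deeper fall. The scaling moved the background of this comparison by -0.01 only.

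**Figure D3:**
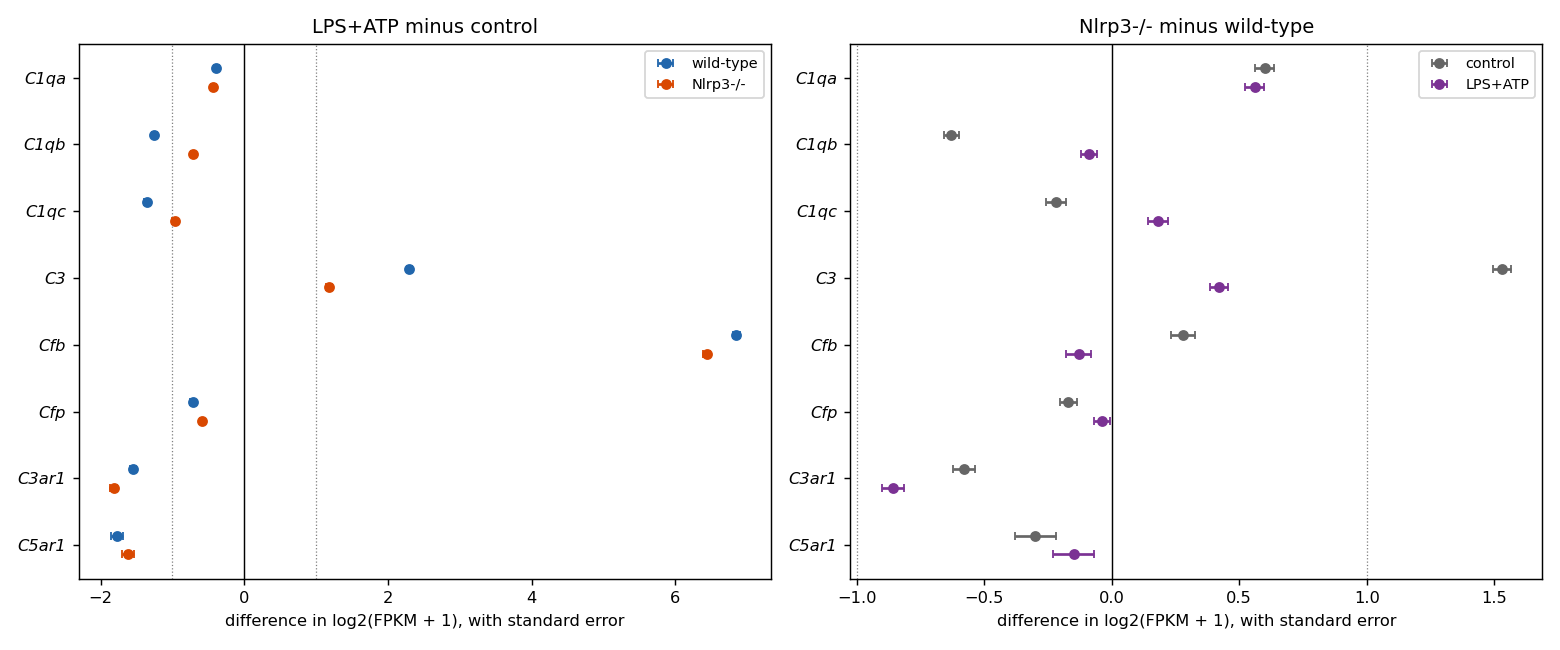
Difference in log2(FPKM + 1) with its standard error for each of the 8 genes, LPS+ATP minus control in each genotype (left) and Nlrp3-/- minus wild-type in each state (right), on axes of different range, with dotted lines at the fold limit of 1 in either direction. C3 and Cfb lie to the right of 0 on the left side in both genotypes, and on the right side C3 in control, at 1.53, is the only value past the limit.

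Of 48 other complement genes, 22 rows passed the filter, and the medians and counts below are over those. With LPS+ATP, 1 of the 22 was called higher and 3 lower in wild-type, near the 8.25% and 11.2% of all tested genes, and 4 higher and 4 lower in Nlrp3-/- BMDMs, against 6.64% and 8.21%. In the knockout against wild-type, 7 were called higher in each state, against 6.02% of all tested genes in control and 4.48% after LPS+ATP. Of these, 2 in control and 5 after LPS+ATP fell short of the fold limit with median-ratio scaling, at 0.86 to 0.99. With limma 0 were called lower in either state, and 0 were past the fold limit downwards at an unadjusted p under 0.05. Their median log2 difference was 0.71 in control and 0.62 after LPS+ATP, against 0.09 and 0.11 over all tested genes, and at the adjusted p alone 14 were higher and 1 lower in control and 14 higher and 4 lower after LPS+ATP, where 47.8% and 48.5% of all tested genes passed. The fibroblast and granulocyte marker sums were higher in the same libraries. Masp1 and Cd55, both among the 14 in each state, passed the filter only through Nlrp3-/- libraries. C1rb, higher in the knockout after LPS+ATP, passed it only with its Nlrp3-/- LPS+ATP libraries. The direction of these genes was thus not independent of the filter. Wild-type libraries read at most 0.278 FPKM for Masp1 and 0.728 for Cd55.

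The classical pathway downstream of C1q had 5 tested genes, all with positive stimulation values. In wild-type 1 was called higher and 4 passed at the adjusted p alone, C1rb not (0.41, adjusted p = 0.3973). In Nlrp3-/- BMDMs 4 were called higher and all 5 passed. Of all tested genes, 8.25% and 6.64% were called higher and 76.4% and 74.3% passed at the adjusted p alone. C2, which supplies the convertase protease of that pathway, rose by 1.46 in wild-type (adjusted p = 2.504e-09) and 1.41 in Nlrp3-/- BMDMs (adjusted p = 4.641e-09). It was also higher in the knockout by 1.21 in control (adjusted p = 4.478e-08) and 1.16 after LPS+ATP (adjusted p = 8.278e-08). Its level, 0.967 ± 0.189 to 11.1 ± 0.445 FPKM between the lowest and the highest group, stayed far under that of its neighbour Cfb after stimulation. C4b, the substrate of C1s, rose by 0.64 (adjusted p = 3.474e-06) and by 1.16 (adjusted p = 2.545e-08), and C1ra, a C1 protease, by 0.94 (adjusted p = 4.279e-09) and 1.04 (adjusted p = 2.433e-09), in wild-type and Nlrp3-/- BMDMs. Mean FPKM of C4b rose 2.375-fold from 0.704 in wild-type and 3.027-fold from 1.58 in Nlrp3-/- BMDMs. The pseudocount understates the wild-type rise of C4b more. C1s1, the other C1 protease, was 1.16 higher in the knockout after LPS+ATP (adjusted p = 0.0005919), where its libraries ranged from 9.75 to 19.5 FPKM. C1rb read 0 to 2.78 FPKM in 9 libraries and 4.57 to 5.41 in Nlrp3-/- LPS+ATP, and its interaction of 2.10 (adjusted p = 0.02401) did not pass with a pseudocount of 0.1 (adjusted p = 0.09895), with no filter (0.06586), with TPM (0.05009), without wild-type LPS+ATP replicate 1 (0.05592) or 3 (0.05753), or without Nlrp3-/- control replicate 1 (0.05015) or 2 (0.05133). C1ra with C1rb, C1s1 with C1s2 and C4b with C4a are near-identical copies, so the split of reads between them is uncertain. C2 matches Gm20547, at most 1.75 FPKM, with 100% identity over 1051 of 2641 transcript bases, so reads from those bases cannot be told apart either.

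Of the 4 tested lectin-pathway genes, Fcna, Fcnb and Colec12 were higher in the knockout in both states at the adjusted p alone. Of all tested genes, 47.8% and 48.5% passed in either direction. Masp1 was higher too, but it passed the filter only through Nlrp3-/- control libraries (1.18 to 1.22 FPKM). Wild-type libraries read at most 0.278 FPKM for it, so its direction in control was set by the filter. Of the soluble regulators, Serping1 was higher in both states, and Clu was 1.25 higher in control (adjusted p = 8.513e-09) but lower after LPS+ATP (-0.48, adjusted p = 2.584e-05). Serping1, the C1 inhibitor, read 24.8, 26.2 and 26.7 FPKM in wild-type control, 47.4, 46.6 and 49.1 in wild-type LPS+ATP, 81.7, 77.0 and 79.7 in Nlrp3-/- control and 112, 113 and 109 in Nlrp3-/- LPS+ATP. The groups stood apart, and the genotype difference was 1.58 in control (adjusted p = 4.916e-11) and 1.20 after LPS+ATP (adjusted p = 7.181e-10). Clu, whose product clusterin inhibits the terminal complex, rose by 0.98 in wild-type (adjusted p = 1.64e-08) and fell by 0.74 in Nlrp3-/- BMDMs (adjusted p = 2.622e-07). The ficolin genes Fcna and Fcnb, which encode lectin-pathway recognition proteins, were higher in the knockout by 1.72 (adjusted p = 7.564e-10) and 2.44 (adjusted p = 1.93e-08) in control and by 1.31 (adjusted p = 1.01e-08) and 1.02 (adjusted p = 2.901e-05) after LPS+ATP. That last value was 0.88 without Nlrp3-/- LPS+ATP replicate 3, 0.97 without wild-type LPS+ATP replicate 1 and 0.975 without replicate 3, under the fold limit. Fcnb changed by -1.34 in wild-type (adjusted p = 1.024e-06) and by -2.76 in Nlrp3-/- BMDMs (adjusted p = 2.342e-09). Its mean fell from 2.20 to 0.266 FPKM in wild-type and from 16.3 to 1.58 in Nlrp3-/- BMDMs. Those falls were 8.26-fold and 10.3-fold, and the pseudocount understates the one at the lower level. The granulocyte marker sum also fell in both genotypes, and the part of that sum was not tested. Colec12, a scavenger lectin, was 1.15 higher in control (adjusted p = 1.679e-08). Of the membrane regulators, Cd59a, which blocks the terminal complex, fell by 1.14 in Nlrp3-/- BMDMs (adjusted p = 0.0007045), and by 0.95 without Nlrp3-/- control replicate 3.

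Among other receptors, Cd93, a C-type lectin once described as a C1q receptor, went from 122, 110.0 and 111 FPKM to 8.55, 8.43 and 8.23 in wild-type and from 61.9, 62.6 and 64.2 to 6.55, 6.66 and 6.22 in Nlrp3-/- BMDMs. These groups did not overlap, and the log2 fold changes were -3.61 (adjusted p = 3.363e-14) and -3.10 (adjusted p = 1.51e-13). Vsig4, the complement receptor of tissue macrophages, was 1.04 higher in Nlrp3-/- control (adjusted p = 3.132e-05), and under the fold limit with median-ratio scaling (0.86), without wild-type control replicate 3 (0.98) and without Nlrp3-/- control replicate 3 (0.985). C1qbp, a C1q-binding protein, changed by -0.97 in wild-type (adjusted p = 7.137e-08) and by -0.38 in Nlrp3-/- BMDMs (adjusted p = 0.0002425), the latter at -0.10 (adjusted p = 0.2099) with median-ratio scaling. Of the integrin chains of complement receptors 3 and 4, Itgax changed by -0.79 (adjusted p = 1.103e-06) and -0.94 (adjusted p = 2.864e-07), and Itgb2 by -0.10 (adjusted p = 0.002112) and -0.21 (adjusted p = 9.805e-06), the last gene with values of 0.21 and 0.09 under median-ratio scaling, so its direction rests on the scaling. Itgam was listed in 2 rows whose annotated transcripts are 99.913% identical, so it was taken as their sum, 153.7 ± 3.79 FPKM in control and 139.5 ± 2.97 in stimulated wild-type BMDMs, and 137.3 ± 2.58 and 112.1 ± 1.57 in the same states of the knockout.

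Several parts of the cascade were at very low levels in these cells. None of the 7 terminal-pathway genes passed the filter, and the highest value of any of them was 1.459 FPKM, for C8g. Hc, which encodes C5, the source of the C5aR1 ligand, was at most 0.062 FPKM. Cfd, the factor D protease that cleaves factor B, was at most 0.211 FPKM. C5ar2, the other C5a receptor, did not pass the filter; 1 Nlrp3-/- control library read 2.02 FPKM and the others at most 0.241.

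**Figure D4:**
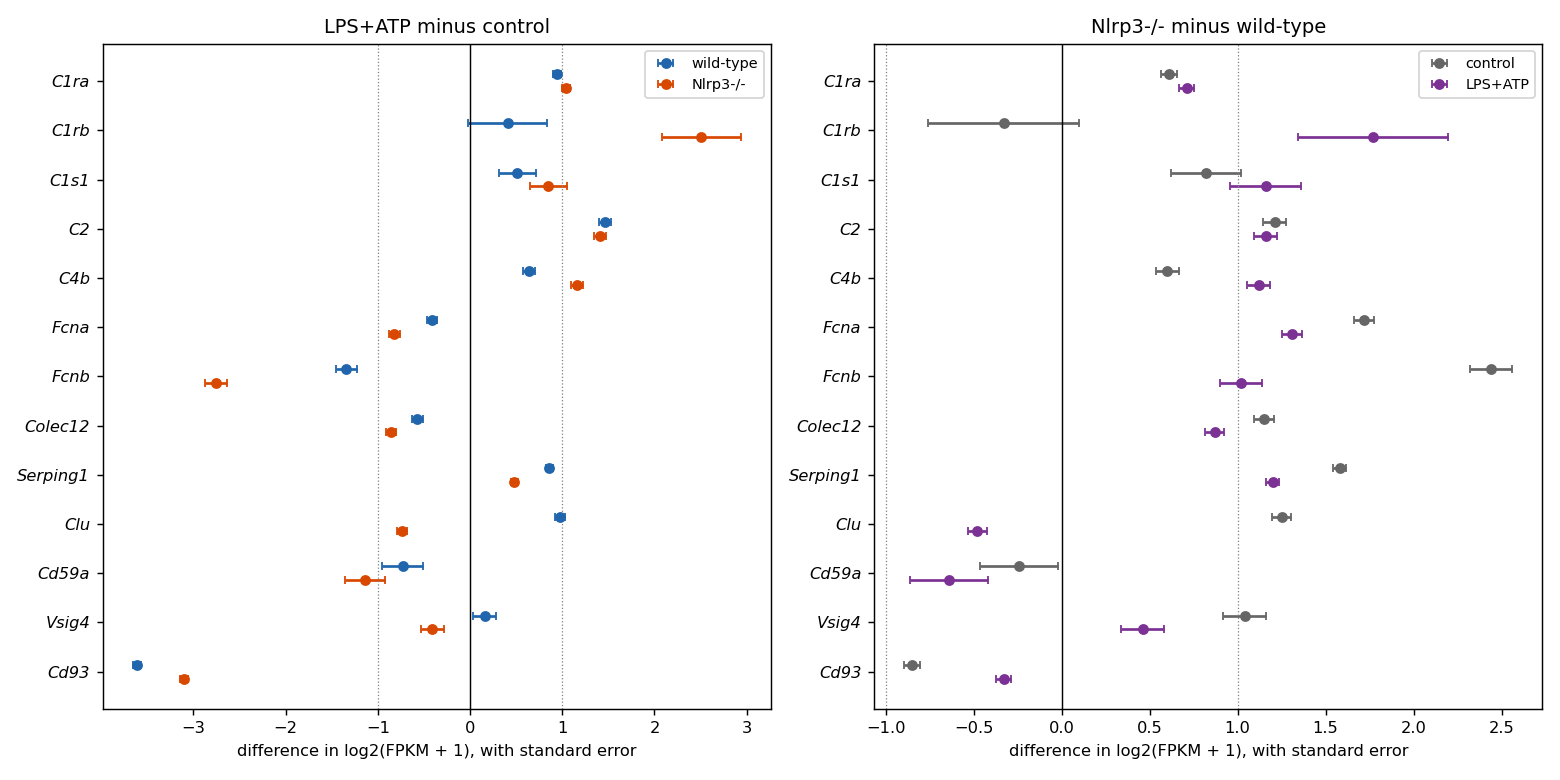
Difference in log2(FPKM + 1) with its standard error for 13 other complement genes called in at least 1 comparison, LPS+ATP minus control in each genotype (left) and Nlrp3-/- minus wild-type in each state (right), on axes of different range, with dotted lines at a fold limit of 1 in either direction. C2 lies past the limit to the right in all 4 comparisons, Cd93 lies farthest to the left with stimulation at -3.61 and -3.10, and Clu lies on opposite sides of 0 in the 2 genotypes.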

How the data were processed

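Total RNA of 12 BMDM libraries, prepared with an Illumina TruSeq kit, was sequenced, and the authors deposited 1 table of FPKM values per gene for 55335 genes. FPKM is relative to gene length and to the fragments mapped in a library. The deposited processing notes name GRCm39 and DESeq2 1.24.0 without a role. The aligner, the counter, the annotation and the strand setting are not given in the sources used here. No fragment counts are used here. Absolute depth is unknown, and relative depth came from the most common ratio of low values between each library and wild-type control replicate 1. The FPKM columns summed to 283278 to 299393.

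Groups were taken from the genotype and treatment labels. The test was limma 3.58.1 in R 4.3.3, run on log2(FPKM + 1), with 1 mean per group over all 12 libraries and a variance trend. P-values are two-sided and Benjamini-Hochberg adjusted over the 12622 genes with at least 1 FPKM in at least 3 libraries. A call needed an adjusted p under 0.05 and an absolute log2 difference of at least 1. The pseudocount understates changes of low genes. The script was checked on data with known changes. Ratios and likeness are descriptions. Gene IDs were placed with GENCODE M21 (55154 matched), and blastn 2.17.0 listed near copies of at least 95% identity. Python 3.11.15, pandas 2.3.3 and matplotlib 3.10.9 served for tables and figures.

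The members and lists were chosen with earlier results of these data known. Named were the 8 members, other complement genes called in at least 1 comparison, tested complement receptors and the 3 genes most like each member. Some genes that met these rules are not reported here. Other genes named for low levels (C8g, Hc, Cfd, C5ar2) were chosen after their values were seen. Alternatives were TPM, a smaller pseudocount (0.1), the filter dropped or set at 5 FPKM, median-ratio and upper-quartile scaling, the replicate number as a block, no variance trend, the compared groups alone, no fold limit, and leaving out each library.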

Additional observations from a re-analysis of the deposited data

Results flagged for a closer look

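The stimulation effect differed between genotypes by the limma interaction test, at the adjusted p alone, for 5 of the 8 main genes and 14 of the 22 other tested rows, where 27.7% of all tested genes differed. Values are the effect in Nlrp3-/- minus that in wild-type BMDMs on the log2 scale. The 5 were C3 at -1.12 (adjusted p = 1.312e-07), C1qb at 0.53 (adjusted p = 6.172e-06), C1qc at 0.40 (adjusted p = 0.0003505), Cfb at -0.41 (adjusted p = 0.001094) and C3ar1 at -0.28 (adjusted p = 0.00616). All 5 also differed between genotypes in the control state, Cfb not with median-ratio scaling (0.10, adjusted p = 0.1063). At the adjusted p alone all 8 main genes differed there, as did 47.8% of all tested genes.

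Of the other genes, 3 were also past the fold limit. Clu stood at -1.72 (adjusted p = 1.155e-07) and changed in opposite directions: its libraries read 1.58, 1.66 and 1.52 FPKM in wild-type control, 3.95, 4.15 and 4.24 in wild-type LPS+ATP, 4.99, 5.24 and 5.19 in Nlrp3-/- control and 2.90, 2.71 and 2.44 in Nlrp3-/- LPS+ATP. Fcnb stood at -1.42 (adjusted p = 0.0001038), and at -0.60 (adjusted p = 0.2491) with a pseudocount of 0.1. With TPM it was -0.966 (adjusted p = 0.02137), short of the fold limit. C1rb stood at 2.10 (adjusted p = 0.02401, and 0.09895 with a pseudocount of 0.1), a gene whose reads its near copy C1ra can share.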

How the results depend on the processing

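Of 352 results of the 8 genes under alternatives other than leaving out a library, 348 kept their direction and their call by both limits together, and so did all 480 with 1 library left out. At the adjusted p alone, 18 of the 352 and 16 of the 480 changed side, those of C1qa, C1qb, C1qc, Cfb, Cfp and C5ar1. The exceptions by both limits or direction were C1qb with stimulation in wild-type (-0.93 with median-ratio and -0.99 with upper-quartile scaling) and, with median-ratio scaling, C3ar1 (-1.07) and C1qc (-0.033) between genotypes after LPS+ATP, where the number of the 8 called became 1. With no fold limit that number was 6 there, 8 between genotypes in control, 5 in the interaction and 8 with stimulation in Nlrp3-/- BMDMs. Turned in direction were C1qbp between genotypes in control (-0.074), Itgax between genotypes after LPS+ATP (-0.135, -0.042 with upper-quartile scaling, and from -0.022 without wild-type LPS+ATP replicate 1 to 0.082 without replicate 3) and Itgb2 with stimulation (0.214 in wild-type and 0.089 in Nlrp3-/-, and 0.155 in wild-type with upper-quartile scaling), at median-ratio scaling where no other is named. The cause was not tested. Of 955 results of the other complement genes under every alternative, 918 kept their direction and call.

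Over all genes, the calls (stimulation in wild-type, stimulation in Nlrp3-/-, genotype in control, genotype after LPS+ATP, interaction) numbered 2452, 1874, 847, 637 and 271. They became 3702, 2847, 1428, 1406 and 634 with a pseudocount of 0.1, and 9641, 9383, 6035, 6124 and 3494 with no fold limit. TPM gave 1285, 1175 and 501 for the last 3, and a filter of 5 FPKM gave 515 for genotype in control. Median-ratio scaling moved the split of higher against lower calls from 1041 and 1411 to 1391 and 896 with stimulation in wild-type, from 838 and 1036 to 1097 and 601 in Nlrp3-/-, from 760 and 87 to 573 and 148 between genotypes in control and from 565 and 72 to 433 and 126 after LPS+ATP. The replicate numbers did not pair the libraries (correlations of deviations from -0.057 to 0.053), and with the replicate block the 8 genes kept 6, 4, 1, 0 and 1 calls. Without fragment counts the precision of single low values is unknown.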

Other observations

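The genes whose log2(FPKM + 1) followed each complement gene most closely over the 12 libraries differed among the C1q chains. These libraries share 4 groups, so the Pearson correlations are descriptions. Each complement gene had many tested genes at 0.95 or more, from 204 for C3 to 1526 for C1qc. For C1qa the closest were S100a9 (r = 0.9948), Col6a2 (0.9937) and Myl9 (0.9936). S100a9 is a granulocyte marker and Col6a2 a collagen gene. For C1qb they were Tecpr1 (0.9971), Bsn (0.9962) and Nrp1 (0.996), and for C1qc Lyl1 (0.9978), Gna12 (0.9974) and Prkch (0.9972). C1qa correlated with C1qb at 0.249 and with C1qc at 0.553, whereas C1qb and C1qc correlated at 0.94.

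Close to C3 were Aars (r = 0.9973) and Hp (0.9956), the latter encoding haptoglobin, an acute-phase protein as C3 is. For Cfb they were Gbp2, Icam1 and Agtrap (each 0.9995), among 931 tested genes at 0.95 or more. Gbp2 encodes an interferon-inducible GTPase and Icam1 an adhesion molecule. Cfp was closest to Coro1c (0.9973), Wdfy4 (0.9971) and Fabp5 (0.9966), C3ar1 to Osbpl8 (0.9969), Atp8b4 (0.9966) and Slc6a6 (0.9965), and C5ar1 to Sash3 (0.9969), Galm (0.9962) and Arhgef6 (0.9959).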
